A study of Mus musculus with 57 samples.

Results

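Splicing factors of the hnRNP and SR families, with the SF3a and SF3b subunits and the proteins of the small nuclear ribonucleoprotein particles (snRNPs), were followed in 3 brain regions of mice that had drunk ethanol voluntarily. Members were the genes with a probeset annotated to a single symbol beginning with Hnrnp, Hnrp, Srsf, Sfrs, Sf3a, Sf3b or Snrp. This gave 44 genes of 12393 on the array, comprising 18 hnRNP, 9 SR, 9 SF3 and 8 snRNP genes. Each gene was represented by the probeset with the highest mean signal over all arrays, and all 3 probesets of Hnrnpa1 were examined. The probeset was thus selected on the signal level, and the family was chosen by name, in part because Hnrnpa1 had been seen to fall with ethanol intake in prefrontal cortex. Intake of single mice is not among the sample labels, and expression was not analysed here by intake. A further 14 probesets carrying several symbols were left out, which removed genes such as Hnrnpa3, Snrpd1 and Snrpd2 altogether, as well as the probesets that Snrpn shares with Snurf and 3 that Hnrnpa1 shares with its pseudogenes.

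All animals were young male C57BL/6NCrl mice, an inbred strain, housed singly and given a choice of water or 10% (w/v) ethanol in 18 h sessions, 16 in all. Tissue was taken 6 days after the last session from the prefrontal cortex (PFC), from the nucleus accumbens (NAc) and from the ventral midbrain (VMB), which includes the ventral tegmental area and is named so in the labels, and no mice without ethanol access were profiled on these arrays. RNA of 19 single mice per region was hybridized, giving 57 arrays, so the p-values below measure the spread between mice. The regions were dissected from the same mice, but no label ties a replicate number to a mouse, and the arrays entered the fit as independent samples. One array, PFC replicate 20, is PFC by its title and ventral tegmental area by its other labels. Its mean level of cortical excitatory neuron markers was 9.19, inside the range of the other PFC arrays (9.11 to 9.81) and above that of VMB (4.40 to 5.18), and it was kept as PFC.

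The pre-mRNA of most genes is spliced by the spliceosome, which is assembled from snRNPs, most of which carry a ring of Sm proteins around a small nuclear RNA. Within the U2 snRNP, the SF3a and SF3b complexes bind the branch site. SR proteins, which have a domain rich in arginine and serine, mostly promote the use of nearby splice sites, whereas many hnRNP proteins repress it. Neurons use alternative splicing widely, and the balance of these factors helps to decide which exons are kept.

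The array median of the deposited log2 values differed by region, at 6.26 to 6.32 in NAc, 5.66 to 5.70 in PFC and 5.79 to 5.86 in VMB. Region and array scale cannot be told apart on those values. Levels are therefore given on the log2 scale after quantile normalization over all 57 arrays, and a difference of 1 is a doubling. On the deposited values the median gene stood higher in NAc than in PFC by 0.74, higher in VMB than in PFC by 0.19 and higher in NAc than in VMB by 0.55, and after normalization by 0.06, 0.04 and 0.02. A member was called when its difference had an adjusted p under 0.01 by limma, over the 19815 probesets that reached 4.5 on at least 1 array, and was at least 0.5. All 44 chosen probesets passed this filter.

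Markers of each region were as labelled, with 4 of 4 striatal projection neuron genes called higher in NAc than in PFC and 4 of 5 dopamine neuron genes called higher in VMB than in PFC. The 4 measured cortical excitatory neuron genes were called lower in NAc and in VMB than in PFC. They were also called higher in NAc than in VMB (median 2.28), and 2 of 5 dopamine neuron genes were higher in NAc than in PFC. The source of these signals in NAc was not tested. Markers of glia also differed between the regions. The 7 measured oligodendrocyte genes had a mean level of 9.98 to 10.3 over the NAc arrays, 7.77 to 9.15 in PFC and 10.8 to 11.1 in VMB, and none was under 4.5 in any region mean. All 7 were called higher in NAc and in VMB than in PFC, and 6 of 7 were lower in NAc than in VMB. The mean of 8 astrocyte genes was 8.23 to 8.57 in NAc, 8.31 to 8.61 in PFC and 9.04 to 9.29 in VMB, and that of 7 general neuron genes was 9.69 to 10.1, 10.4 to 10.6 and 10.0 to 10.5. Oligodendrocyte markers thus differed in every comparison of regions, whereas 7 of 8 astrocyte genes were not called between NAc and PFC, and their part in the splicing factor levels was not tested. In such tissue, fewer cells of a type and less RNA per cell cannot be told apart.

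Hnrnpa1 encodes an abundant hnRNP A/B protein that competes with SR proteins and often causes exons to be skipped. Its probeset of highest signal, 1455305_x_at, ranged in NAc from 7.95 to 8.32 with a median of 8.21. The PFC arrays ranged from 7.72 to 8.09 (median 7.86) and the VMB arrays from 7.70 to 8.11 (median 7.93). The NAc arrays were thus high as a group, although the ranges overlapped, and PFC and VMB covered almost the same range. The NAc level of Hnrnpa1 exceeded that of PFC by 0.32 ± 0.04 (SE, n = 19 per region, limma adjusted p = 5.15e-12) and that of VMB by 0.29 ± 0.04 (adjusted p = 5.55e-11), both under the minimum of 0.5. Between VMB and PFC it differed by 0.02 ± 0.04 (adjusted p = 0.541), a sign that turned with median centring.

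A second Hnrnpa1 probeset, 1436549_a_at, showed the same order with a larger step. Its values were 7.14 to 7.999 in NAc (median 7.61), 6.02 to 6.91 in PFC (median 6.50) and 5.73 to 7.04 in VMB (median 6.51). No PFC or VMB array reached the lowest NAc array. The difference was 1.09 ± 0.08 against PFC (limma adjusted p = 7.56e-19) and 1.10 ± 0.08 against VMB (adjusted p = 3.99e-19), a little over 2-fold in each case. The third probeset, 1455740_at, lay between 3.04 and 4.33 on all arrays, did not pass the filter and was not tested between regions.

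**Figure D1:**
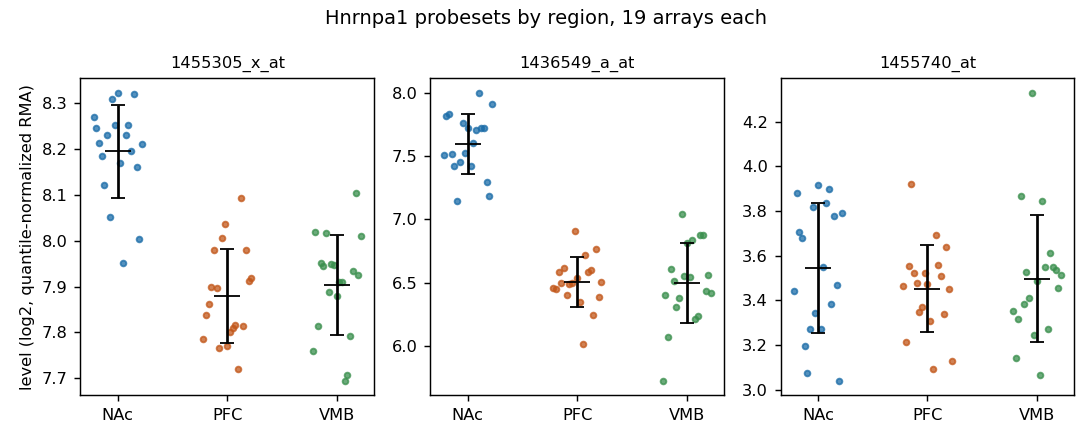
Level of each Hnrnpa1 probeset (log2, quantile-normalized RMA, each panel with its own axis) on the 19 arrays of NAc, PFC and VMB, with 1 point per mouse and bars for the mean ± SD. NAc lies above the other regions by 0.32 and 0.29 for 1455305_x_at and by 1.09 and 1.10 for 1436549_a_at, while 1455740_at stays between 3.04 and 4.33 throughout.

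Across mice, the Hnrnpa1 probesets were compared with each other within each region, in 9 comparisons with two-sided permutation tests. The closest pair in NAc was 1436549_a_at and the weak probeset 1455740_at, with r = 0.86 and rho = 0.81 over 19 mice (permutation p = 2e-05 with 100000 permutations, adjusted p = 0.00018). When the 2 most distant mice were left out r was 0.78. The same pair had r = 0.58 in PFC and 0.55 in VMB (adjusted permutation p = 0.0367 in each), and 0.49 and 0.42 with 2 mice left out. For the 2 probesets that passed the filter, r in the 3 regions was 0.45, 0.44 and 0.33 (NAc, PFC, VMB), with rho of 0.46, 0.43 and 0.24 and adjusted permutation p of 0.0924, 0.0924 and 0.217. With the values as deposited these r were 0.74, 0.48 and 0.54 (adjusted permutation p = 0.00122, 0.0482 and 0.0299). Probesets of 1 array share its hybridization and RNA, so a common rise or fall on an array need not be that of the gene.

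Between NAc and PFC, 8 of the 44 members were called, 6 higher in NAc and 2 lower, which is 18.2% beside 24.6% of the 11336 genes tested. In one direction, 13.8% of all genes were called higher and 10.8% lower. The members higher in NAc were Snrpg, Hnrnpr, Sf3b5, Sf3b6, Hnrnph3 and Snrpa1, and those lower were Hnrnpl and Srsf10. Small differences were common, since 22 members were higher and 7 lower at an adjusted p under 0.01 whatever the size, together 65.9% beside 73.2% of all genes (41.5% higher and 31.7% lower). The median difference of the members was 0.16 and that of all genes 0.06, and the median size of the difference was 0.26 against 0.27. For 7 members, all higher in NAc, the ranges of the 2 regions did not overlap, beside 22.5% of all genes (13.4% higher and 9.1% lower). By class, 2 hnRNP, 2 SF3 and 2 snRNP genes were called higher, and no SR gene (5 of 9 higher at an unadjusted p under 0.05, limma). At an adjusted p under 0.01 by limma and any size, 5 of the 9 SR genes were higher and 2 lower.

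Snrpg, which encodes SmG of the Sm ring, had the largest step upwards. The level was 9.68 to 10.08 in NAc (median 9.92), 8.84 to 9.31 in PFC (median 8.998) and 8.44 to 8.89 in VMB (median 8.78). NAc lay clear of both other regions on every array. The gene stood higher in NAc than in PFC by 0.86 ± 0.04 (limma adjusted p = 5.19e-26) and than in VMB by 1.17 ± 0.04 (adjusted p = 9.49e-33). Its other probeset, 1448357_at, gave 0.52 ± 0.04 and 0.70 ± 0.04.

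Hnrnpr, a relative of Syncrip that binds RNA, was similarly set apart in NAc. It ranged from 9.29 to 9.73 there (median 9.58), from 8.64 to 9.04 in PFC (median 8.88) and from 8.68 to 9.23 in VMB (median 8.93). No NAc array overlapped with either region, whereas PFC and VMB overlapped widely. The differences were 0.68 ± 0.04 from PFC (limma adjusted p = 7.23e-24) and 0.64 ± 0.04 from VMB (adjusted p = 1.24e-22). A second probeset, 1437526_x_at, was higher in NAc by 0.66 and 0.71, but the third, 1452030_a_at, had differences of -0.35 and -0.15.

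Within the U2 snRNP, Sf3b5, a small subunit of SF3b, had a level of 9.22 to 9.50 in NAc (median 9.35), 8.56 to 8.97 in PFC (median 8.68) and 8.46 to 8.86 in VMB (median 8.61). It stood higher in NAc than in PFC by 0.66 ± 0.03 (limma adjusted p = 5.79e-26) and than in VMB by 0.74 ± 0.03 (adjusted p = 8.84e-29), with no overlap. Sf3b6, the p14 subunit that touches the branch site, followed another order, with PFC low. Its values were 9.50 to 10.01 in NAc (median 9.86), 8.95 to 9.43 in PFC (median 9.24) and 9.56 to 10.16 in VMB (median 9.94). PFC lay below every array of the other regions, by 0.59 ± 0.05 from NAc (limma adjusted p = 3.58e-18) and 0.72 ± 0.05 from VMB (adjusted p = 3.31e-22). The other tested probesets of Sf3b6, 1417054_a_at and 1436681_x_at, gave 0.37 and 0.88 for NAc minus PFC, but only 0.10 and 0.17 for VMB minus PFC.

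Snrpa1, which encodes a protein of the same particle, exceeded its PFC level in NAc by 0.53 ± 0.07 (limma adjusted p = 9.45e-11), with ranges of 7.50 to 8.27 and 7.09 to 7.79 that overlapped. Hnrnph3, of the F/H group that binds G-rich RNA, was higher in NAc by 0.57 ± 0.05 (limma adjusted p = 1.98e-16), at 7.55 to 8.22 against 7.23 to 7.60. Its VMB arrays lay between, at 7.42 to 7.99.

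Hnrnpl, which binds CA repeats, was the member with the largest step downwards in NAc. It ranged there from 6.11 to 6.84 (median 6.55), against 6.83 to 8.33 in PFC (median 7.55) and 7.01 to 7.75 in VMB (median 7.33). All NAc arrays lay below all VMB arrays, and only the lowest PFC array, replicate 19 at 6.83, fell within the NAc range. The gene, measured by 1 probeset, was lower in NAc than in PFC by 1.03 ± 0.07 (limma adjusted p = 6.90e-20) and than in VMB by 0.84 ± 0.07 (adjusted p = 2.90e-16). On the deposited values these differences were -0.41 and -0.30, where the median gene was higher in NAc. Hnrnpll, its relative, showed no such step, being higher in NAc than in VMB by 0.53 ± 0.05 (adjusted p = 5.83e-14).

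Srsf10, an SR protein that represses splicing when it is dephosphorylated, was lower in NAc than in PFC by 0.63 ± 0.10 (limma adjusted p = 2.46e-07). Its range was wide in NAc, from 5.15 to 6.71 (median 6.31), against 6.45 to 7.12 in PFC (median 6.81) and 5.69 to 6.87 in VMB (median 6.48). The 3 lowest NAc values, 5.15, 5.47 and 5.53, came from replicates 1, 6 and 19, the arrays that lay farthest along the first principal component of all genes in NAc. Without these arrays the difference was -0.48 and the gene was no longer called. With the deposited values it was 0.01. The other Srsf10 probesets differed among themselves between NAc and PFC, with -0.75 ± 0.16 for 1418527_a_at, -0.13 ± 0.10 for 1418526_at and 0.15 ± 0.05 for 1449121_at.

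**Figure D2:**
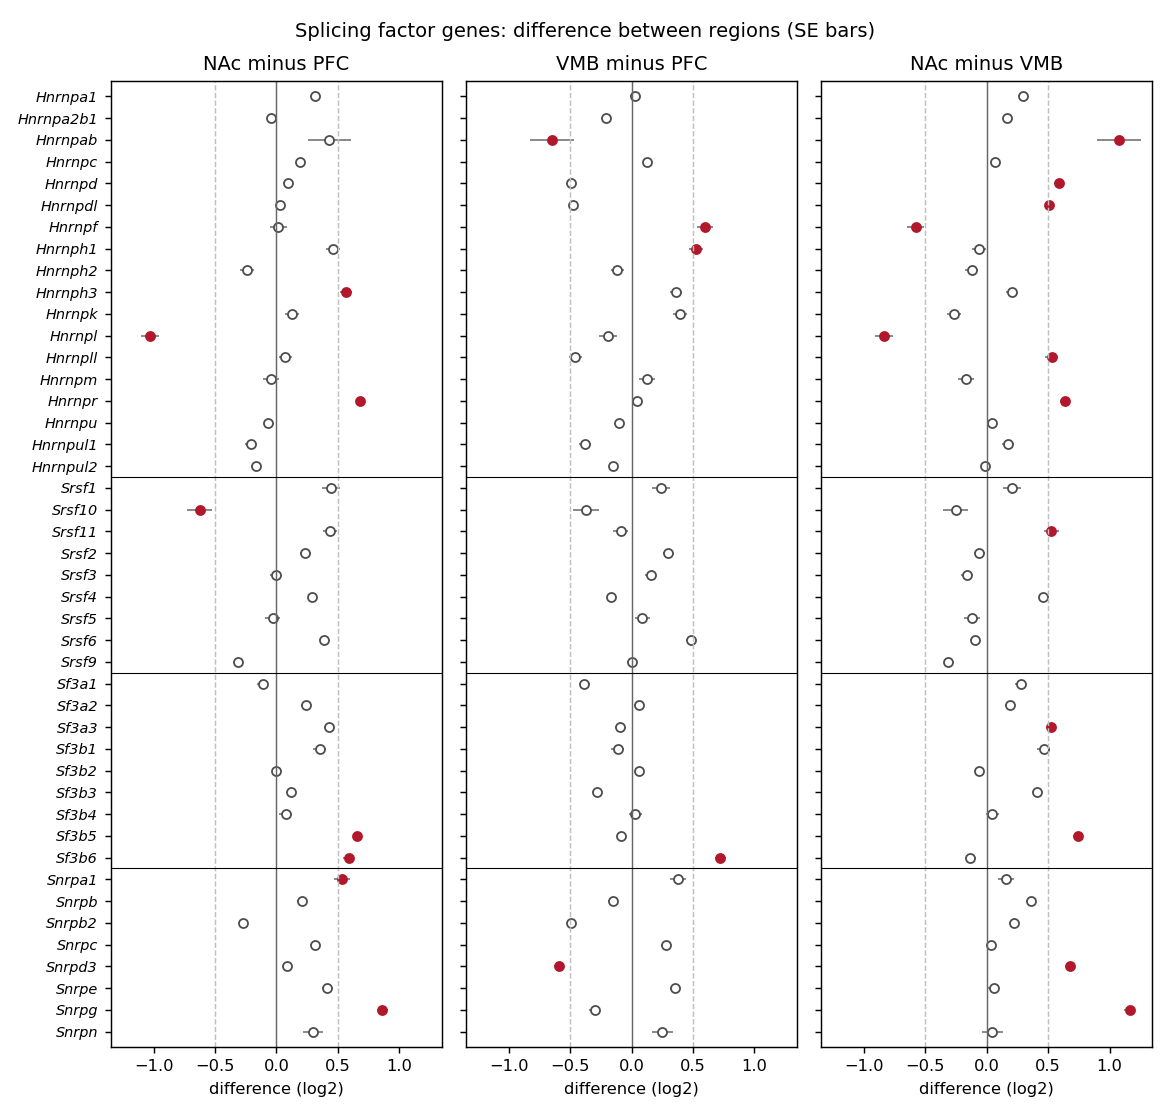
Difference between regions (log2, quantile-normalized RMA) of the 44 splicing factor genes in the 3 comparisons, with SE bars over 19 arrays per region. Filled points were called and open points were not, dashed lines mark a difference of 0.5 in either direction, and horizontal lines separate hnRNP, SR, SF3 and snRNP genes. Snrpg at 1.17 and Hnrnpl at -1.03 lie farthest from 0, and 27 of the 44 genes were called in no comparison.

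Between VMB and PFC only 5 members were called, 3 higher in VMB and 2 lower, or 11.4% beside 29.3% of all genes (15.9% higher and 13.4% lower). In addition to Sf3b6, the higher genes were Hnrnpf and Hnrnph1, both binders of G tracts, and the lower genes were Hnrnpab and Snrpd3. At an adjusted p under 0.01 and any size, 14 members were higher and 16 lower, together 68.2% beside 74.5% of all genes (40% higher and 34.4% lower). The median difference was -0.04, with 22 members above and 22 below 0, and 0.04 over all genes. This balance depended on the scaling, since median centring left 14 above and 30 below 0, with 1 called higher and 6 lower. Of all genes, 53.7% were above 0 before and 53.1% after median centring, and their share called after centring is not given here. The groups did not overlap for 5 members (1 higher and 4 lower), beside 26.4% of all genes (14.5% and 11.9%). None of the 9 SR genes was called (6 at an unadjusted p under 0.05 by limma). At an adjusted p under 0.01 by limma and any size, 4 of them were higher and 2 lower.

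Hnrnpf ranged from 8.64 to 9.51 in VMB (median 9.11), from 8.02 to 8.77 in PFC (median 8.44) and from 8.09 to 8.75 in NAc (median 8.46). VMB was the high region, by 0.60 ± 0.07 from PFC (limma adjusted p = 6.73e-12) and 0.58 ± 0.07 from NAc (adjusted p = 1.56e-11), though the ranges met at their ends. With median centring VMB minus PFC was 0.48 and NAc minus VMB was -0.42, short of 0.5, and on the deposited values NAc was above VMB by 0.05. The 3 other probesets of Hnrnpf had differences in the same direction, of 0.16 to 0.41 from PFC and 0.26 to 0.55 from NAc.

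Hnrnph1 was higher in VMB than in PFC by 0.52 ± 0.05 (limma adjusted p = 4.57e-13), at 9.47 to 10.07 against 9.01 to 9.50, and 0.39 with median centring. Its second probeset, 1437267_x_at, gave -0.17 in this comparison and was called lower in NAc than in either region, where its mean of 4.24 lay under the filter level of 4.5 (5.10 in PFC and 4.93 in VMB). Snrpd3, SmD3 of the Sm ring, was the opposite case, with VMB low. Its level was 7.41 to 7.89 in VMB, below all PFC arrays (8.08 to 8.43) and all NAc arrays (8.13 to 8.61). The gene was lower in VMB than in PFC by 0.60 ± 0.04 (limma adjusted p = 1.96e-22) and than in NAc by 0.68 ± 0.04 (adjusted p = 4.60e-25). The other Snrpd3 probesets did not show this order, and lay 0.08 and 0.13 lower in NAc than in VMB.

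Between NAc and VMB, 12 members were called, 10 higher in NAc and 2 lower, or 27.3% beside 29.4% of all genes. In one direction, 22.7% of members and 14.5% of all genes were called higher, and 4.55% and 14.9% lower, a contrast that was not tested. Besides Snrpg, Sf3b5, Snrpd3, Hnrnpr and Hnrnpll, the higher members were Hnrnpab, Hnrnpd, Hnrnpdl, Srsf11 and Sf3a3, and the lower were Hnrnpl and Hnrnpf. At an adjusted p under 0.01 and any size, 22 were higher and 6 lower, together 63.6% beside 74.9% of all genes (39.3% higher and 35.6% lower). The median difference was 0.16 against 0.02 over all genes, and 10 members did not overlap (9 higher and 1 lower), beside 24.7% of all genes (12.3% and 12.4%). By the chosen probeset, all 8 snRNP genes had a difference above 0, also with median centring and on the deposited values. The other tested probesets of Snrpd3 were lower in NAc than in VMB, as were those of Snrpa1, at means of 7.68 against 7.69 and 7.51 against 7.64. Those of Snrpg and Snrpb2 were higher in NAc. By the chosen probeset, the SR genes had 3 of 9 above 0, 7 of 9 after centring and 9 of 9 on the deposited values. Of all genes, 52.4%, 58.3% and 86.5% were above 0 on these scales, and the classes were not tested against each other.

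Hnrnpd, known as AUF1, binds AU-rich elements in mRNA, and Hnrnpdl is its close relative. Hnrnpd ranged from 8.82 to 9.24 in NAc, 8.85 to 9.15 in PFC and 8.27 to 8.68 in VMB, so VMB lay below all arrays of the other regions. It was higher in NAc than in VMB by 0.59 ± 0.04 (limma adjusted p = 7.09e-23), and the PFC step of 0.49 was just under the minimum. Hnrnpdl had the same order, at 11.43 to 11.69, 11.38 to 11.68 and 10.85 to 11.24, with a step of 0.51 ± 0.03 between NAc and VMB (limma adjusted p = 6.73e-23) and 0.48 between PFC and VMB. Among the 5 other probesets of Hnrnpdl the difference between NAc and VMB ran from 0.12 to 1.19.

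Of the SR genes, Srsf11 alone was called in this comparison, at 8.72 to 9.42 in NAc, 8.32 to 8.86 in VMB and 8.35 to 9.09 in PFC. It was higher in NAc than in VMB by 0.53 ± 0.06 (limma adjusted p = 3.23e-12), and its second probeset, 1427269_at, by 0.12 ± 0.07 (adjusted p = 0.116). Sf3a3, a subunit of SF3a, was higher in NAc by 0.52 ± 0.04 (limma adjusted p = 2.55e-18), with 7.60 to 7.98 against 6.89 to 7.47 and no overlap, and its second probeset gave -0.18 ± 0.08.

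Among the members called in no comparison, several differed by steps just under the minimum. Srsf4, or SRp75, fell in the order NAc, PFC and VMB, at medians of 8.63, 8.36 and 8.19, and NAc overlapped with neither region. Srsf6, or SRp55, was low in PFC, with 0.39 from NAc and 0.48 from VMB. Its other probesets, 1448454_at and 1416720_at, had means of 7.88 and 7.59 in PFC, 8.30 and 7.69 in NAc, and 8.435 and 8.16 in VMB. Srsf9, or SRp30c, was low in NAc by 0.31 against each region (limma adjusted p = 2.56e-11 and 2.08e-11), with PFC and VMB at medians of 8.08 and 8.06. Snrpb2, another protein of the U2 snRNP, was low in VMB by 0.49 against PFC, with no overlap. Its other probesets, 1452422_a_at and 1452131_at, had means of 7.71 and 4.95 in VMB against 7.97 and 5.01 in PFC. Sf3b1, the largest SF3b subunit, was higher in NAc by 0.35 against PFC and 0.46 against VMB (limma adjusted p = 3.83e-08 and 1.41e-11) by its probeset of highest signal. Its second probeset, 1449138_at, gave 0.27 and 0.09, and the third, 1418561_at, went the other way, with -0.63 (called) and -0.30. In contrast Sf3b2, Sf3b4, Srsf5 and Hnrnpm, by the probeset of highest signal, reached an adjusted p under 0.01 in none of the comparisons. Their differences stayed within 0.17 in either direction. A second Sf3b2 probeset, 1438637_x_at, was high in NAc, with means of 9.64 in NAc, 8.80 in PFC and 8.68 in VMB, and no overlap. Its other probesets had means of 7.93, 7.635 and 7.86, and of 7.70, 7.65 and 7.65, in the same order of regions. The second probeset of Sf3b4 had 7.56, 7.28 and 7.64.

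The sequence before the start of transcription is shown for Hnrnpa1 and for 3 of the 4 members called in both comparisons of NAc, Snrpg and Hnrnpr, which were high there, and Hnrnpl, which was low. The other of these members is Sf3b5. Each is 250 bases before to 50 after a start of the gene in RefSeq on GRCm38.p6. For Snrpg and Hnrnpr this is the first base of the annotated gene, and for Hnrnpa1 and Hnrnpl it lies 454 and 2344 bases within it. Such windows were matched for 39 of the 44 members. The letters searched, on both strands, were CCAAT for the box of that name, GGGCGG for the GC box, TATAAA for the start-site box, CACGTG for the E-box and CCGGAAG for the ETS factors. Capitals mark these matches, which do not overlap one another in the 4 sequences.
Hnrnpa1, chr15:103240147-103240446, + strand: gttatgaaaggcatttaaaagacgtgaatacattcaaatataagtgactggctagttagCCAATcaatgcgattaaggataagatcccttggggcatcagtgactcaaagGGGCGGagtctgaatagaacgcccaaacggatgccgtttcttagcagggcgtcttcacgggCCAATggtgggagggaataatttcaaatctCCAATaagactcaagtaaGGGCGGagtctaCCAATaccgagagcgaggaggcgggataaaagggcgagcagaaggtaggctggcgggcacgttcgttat
Snrpg, chr6:86371290-86371589, + strand: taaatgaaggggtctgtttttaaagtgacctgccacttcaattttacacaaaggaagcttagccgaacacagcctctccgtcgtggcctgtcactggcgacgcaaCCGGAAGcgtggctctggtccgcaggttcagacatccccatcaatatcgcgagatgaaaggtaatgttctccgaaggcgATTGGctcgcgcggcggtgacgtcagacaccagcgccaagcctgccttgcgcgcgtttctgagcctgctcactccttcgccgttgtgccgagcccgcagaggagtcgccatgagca
Hnrnpr, chr4:136310692-136310991, + strand: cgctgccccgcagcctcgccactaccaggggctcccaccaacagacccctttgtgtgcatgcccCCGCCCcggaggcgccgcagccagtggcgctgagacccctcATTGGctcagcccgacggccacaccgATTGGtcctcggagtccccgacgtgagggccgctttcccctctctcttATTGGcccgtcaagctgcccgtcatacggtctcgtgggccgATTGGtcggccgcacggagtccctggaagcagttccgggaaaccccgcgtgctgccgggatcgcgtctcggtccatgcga
Hnrnpl, chr7:28810640-28810939, + strand: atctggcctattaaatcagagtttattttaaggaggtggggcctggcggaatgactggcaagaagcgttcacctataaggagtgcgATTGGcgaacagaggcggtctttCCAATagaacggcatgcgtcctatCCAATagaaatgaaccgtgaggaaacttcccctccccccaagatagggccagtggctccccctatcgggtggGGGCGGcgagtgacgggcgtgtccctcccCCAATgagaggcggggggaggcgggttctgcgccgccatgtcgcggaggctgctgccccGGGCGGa
Hnrnpa1, Hnrnpr and Hnrnpl each hold 4 CCAAT boxes and at least 1 GC box, and Snrpg holds 1 CCAAT box and 1 CCGGAAG. Neither TATAAA nor CACGTG occurs in these windows. Over all 27025 promoters, CCAAT occurs in 37.9%, GGGCGG in 35.9%, TATAAA in 14.2%, CACGTG in 7.24% and CCGGAAG in 9.12%. Of the 39 members the counts were 19, 26, 5, 3 and 15, or 48.7%, 66.7%, 12.8%, 7.69% and 38.5%. Whether these matches bear on the levels in the regions was not tested. A match is a description of the sequence and not a bound site.

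Of the 44 genes, 30 have several probesets, up to 7 for Hnrnpab, and 111 of the 115 probesets were tested. These often disagreed. Of 29 genes with at least 2 tested probesets, all probesets had the same sign in 9 genes between NAc and PFC, in 14 between VMB and PFC and in 13 between NAc and VMB. Over the 111 probesets, 16 were called higher and 10 lower between NAc and PFC (13.1% and 13.2% of all probesets, together 26.3%). Between VMB and PFC the counts were 13 and 6 (14.7% and 14.6% of all, together 29.3%), and between NAc and VMB 20 and 11 (14.5% and 15.9%, together 30.5%). Probesets of a gene can lie in different exons or 3' ends, and where each lies was not analysed here.

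Srsf1, also known as SF2/ASF and the best studied SR protein, had probesets called in opposite directions between NAc and PFC. Probeset 1428099_a_at ranged from 8.92 to 9.54 in NAc (median 9.25) and 8.35 to 8.87 in PFC (median 8.53), without overlap, and was higher in NAc by 0.65 ± 0.06 (limma adjusted p = 3.66e-14). Probeset 1452430_s_at ranged from 5.36 to 7.36 in NAc (median 6.70) and 7.30 to 8.12 in PFC (median 7.84), and was lower in NAc by 1.18 ± 0.15 (limma adjusted p = 5.67e-10). Probeset 1453722_s_at was lower in NAc too, by 0.55 ± 0.05. The probeset of highest signal, 1434972_x_at, was higher by 0.44 ± 0.07 and not called. Against VMB the difference of NAc ran from 0.20 for that probeset to -1.31 for 1452430_s_at. On the deposited values 1453722_s_at stood higher in NAc than in PFC by 0.11, while the signs of 1428099_a_at and 1452430_s_at were kept.

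**Figure D3:**
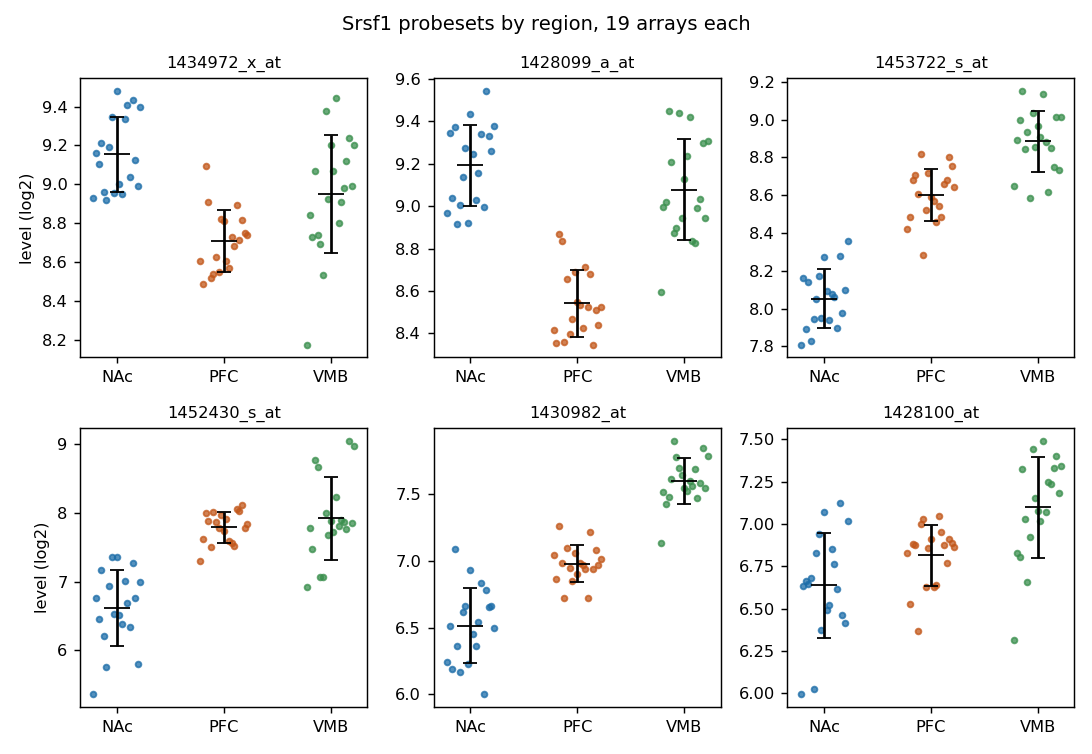
Level of the 6 probesets of Srsf1 (log2, quantile-normalized RMA, each panel with its own axis) on 19 arrays each of NAc, PFC and VMB, with 1 point per mouse and bars for the mean ± SD. NAc is above PFC by 0.65 for 1428099_a_at and below it by 1.18 for 1452430_s_at.

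Hnrnpu, or scaffold attachment factor A, was split between NAc and VMB. Probeset 1423051_at was lower in NAc by 0.87 ± 0.06 (limma adjusted p = 6.92e-21), at 8.18 to 8.79 against 9.15 to 9.82, whereas 1434390_at was higher by 0.77 ± 0.16 (limma adjusted p = 1.81e-05), at 4.68 to 6.62 against 4.11 to 6.27. The probeset of highest signal, 1423050_s_at, differed by 0.04 ± 0.03 (limma adjusted p = 0.262). A further probeset, 1450849_at, was high in PFC, with 8.11 to 10.63 (median 10.30) against 7.25 to 8.04 in NAc and 7.83 to 8.70 in VMB. Its difference from PFC was -2.07 ± 0.17 in NAc (limma adjusted p = 1.90e-16) and -1.68 ± 0.17 in VMB (limma adjusted p = 4.23e-13). Within PFC this probeset had an SD of 0.90 between mice, with 5 of 19 arrays under 9, while 1423050_s_at had an SD of 0.09.

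Hnrnpab, or CBF-A, binds both DNA and RNA, and its probeset of highest signal, 1426114_at, was the most variable member in PFC. It ranged from 8.54 to 12.37 in PFC (median 11.50), from 10.54 to 12.34 in NAc (median 11.97) and from 10.41 to 11.26 in VMB (median 10.81). The lowest PFC value came from replicate 14 alone, with the next at 10.61. The gene was lower in VMB than in PFC by 0.65 ± 0.18 (limma adjusted p = 0.000823) and by 0.81 without that array, and lower than in NAc by 1.08 ± 0.18 (adjusted p = 1.84e-07). The SD between PFC mice was 0.86 for this probeset and 0.07 to 0.18 for the 5 other tested probesets. Of these, 4 were lower in VMB than in PFC as well, by 0.15 to 0.70, and the other had a difference of 0.03.

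**Figure D4:**
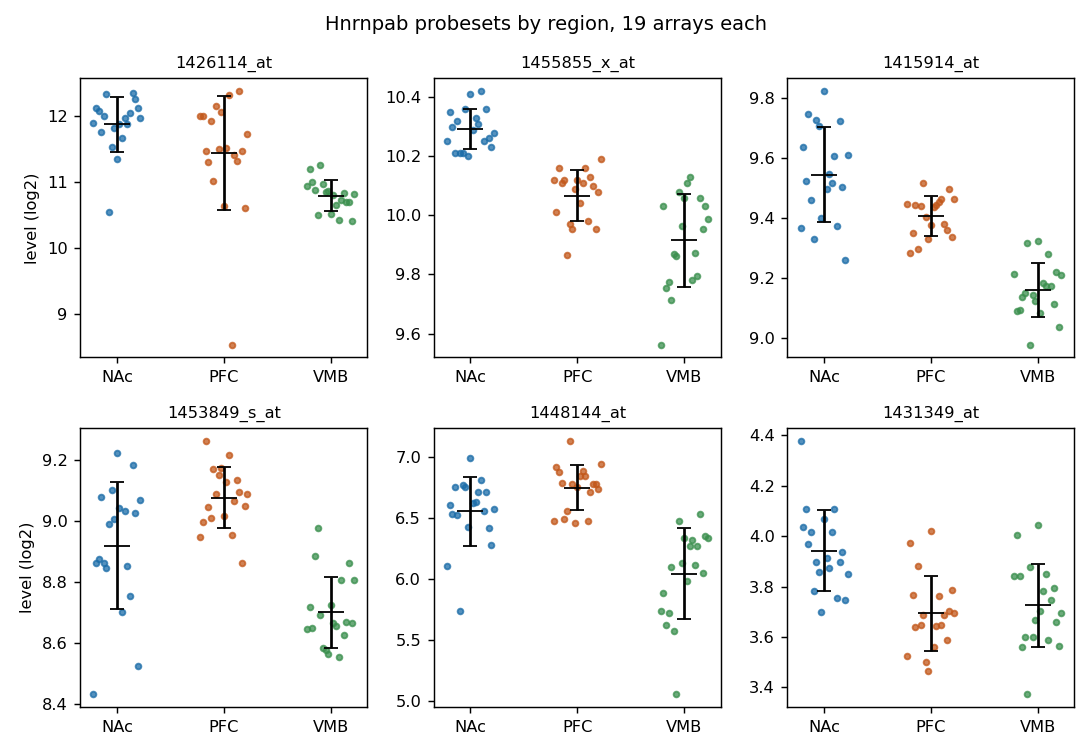
Level of the 6 tested probesets of Hnrnpab (log2, quantile-normalized RMA, each panel with its own axis) on 19 arrays each of NAc, PFC and VMB, with 1 point per mouse and bars for the mean ± SD. For 1426114_at the PFC arrays spread from 8.54 to 12.37, with 1 array far below the rest, and the other panels show no such array.

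Mice of an inbred strain differed little in these genes within a region. The median SD between mice was 0.13 over the members and 0.15 over all genes in NAc, with PFC values of 0.12 and 0.13 and VMB values of 0.14 and 0.16, and 18, 19 and 17 of the 44 members lay above the median of all genes. In NAc the largest SDs were those of Srsf10 (0.42), Hnrnpab (0.41) and Snrpn (0.30). In PFC they were those of Hnrnpab (0.86), Hnrnpl (0.31) and Srsf10 (0.21), and in VMB those of Snrpn (0.33), Srsf10 (0.32) and Srsf1 (0.30). The steadiest members were Hnrnpc (0.06), Hnrnpdl (0.07) and Sf3b2 (0.08) in NAc, Snrpc (0.06), Srsf4 (0.07) and Hnrnpd (0.08) in PFC, and Hnrnpul2 (0.06), Hnrnpc (0.08) and Snrpb (0.08) in VMB. Hnrnpc, which binds uridine tracts in nascent RNA, had values of 10.20 to 10.41 on all NAc arrays.

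Snrpn, the imprinted paralog of SmB that is abundant in brain, ranged from 7.06 to 8.02 in NAc (median 7.27), 6.85 to 7.24 in PFC (median 7.12) and 6.95 to 8.18 in VMB (median 7.29). Its 4 highest NAc arrays were replicates 6, 1, 9 and 19, which also gave the 4 lowest values of Srsf10. Replicates 1, 6 and 19 had scores of -38.4, -34.7 and -33.7 on the first principal component in NAc, where the other arrays lay between -19.5 and 20.5. That component held 47.0% of the variance of all genes in NAc, 17.2% in PFC and 30.7% in VMB, so much of the spread between mice was common to many genes. The median absolute r of the members with the component of their region was 0.55 in NAc, 0.34 in PFC and 0.43 in VMB. Over all genes it was 0.54, 0.25 and 0.40. In NAc, Srsf10 had r = 0.92 and Snrpn r = -0.97 with the component. The members are among the genes from which the component was made, and its part in their spread was not tested. The median r over the 946 pairs of members was 0.08 in NAc, 0.04 in PFC and 0.09 in VMB, beside 0.02, 0.01 and 0.03 over pairs of all genes, which is a description of genes measured on the same arrays.

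**Figure D5:**
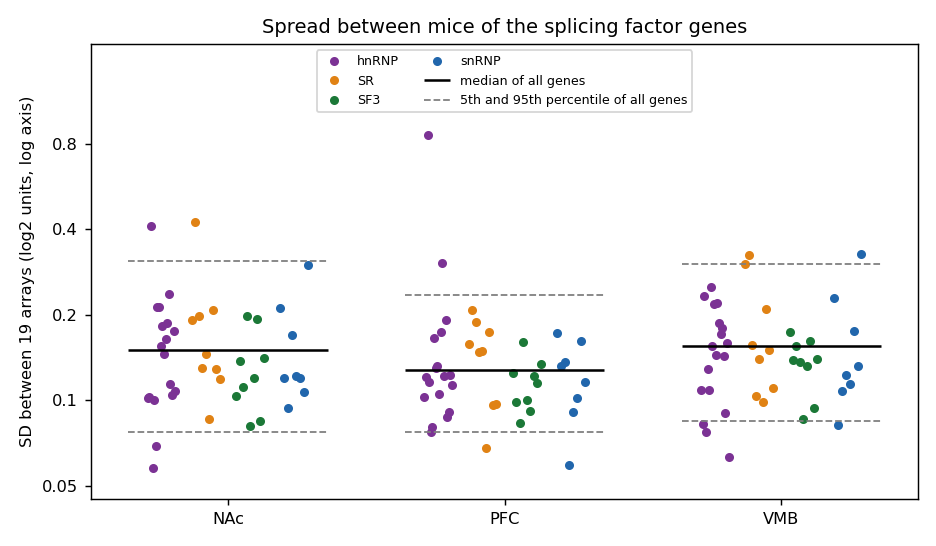
SD between the 19 arrays of a region (log2 units, on a log axis) of each of the 44 splicing factor genes, with 1 point per gene, coloured by class. The solid line is the median of all genes (0.15 in NAc, 0.13 in PFC and 0.16 in VMB) and dashed lines the 5th and 95th percentiles, and Hnrnpab at 0.86 in PFC lies farthest above them.

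Genes that act with these factors were counted in the same fit. Of 60 further spliceosome genes, 50 were tested, and 8 were called higher and 1 lower in NAc than in PFC, 2 higher and 0 lower in VMB than in PFC, and 10 higher and 1 lower in NAc than in VMB. The shares of all genes were 13.8% and 10.8%, 15.9% and 13.4%, and 14.5% and 14.9% in these comparisons, and the lists were not tested against them. Lsm4, of the ring on U6 small nuclear RNA, was higher in NAc by 0.97 ± 0.03 against PFC and 0.82 ± 0.03 against VMB, and Lsm2, another protein of that ring, had a NAc mean of 4.19, under the filter level of 4.5, against 5.03 in PFC and 5.13 in VMB. Other named genes were Prpf38b, higher in NAc than in PFC by 0.97, Cwc22, higher in NAc than in VMB by 0.80, and Prpf40b and Rbm17, higher in VMB than in PFC by 0.63 and 0.55.

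Kinases that phosphorylate splicing factors and importers that carry them into the nucleus were counted together. Of 12 such genes, 1 was called higher and 4 lower in NAc than in PFC (13.8% and 10.8% of all genes), and 0 higher and 4 lower in NAc than in VMB (14.5% and 14.9%). Between VMB and PFC 2 were higher and 2 lower (15.9% and 13.4%). Srpk2, the SR protein kinase prominent in brain, was lower in NAc than in PFC by 2.22 ± 0.10 (limma adjusted p = 2.57e-28) and than in VMB by 1.32 ± 0.10 (adjusted p = 3.77e-18), and lower in VMB than in PFC by 0.90 ± 0.10. Prpf4b, a kinase of spliceosomal proteins, was lower in NAc by 0.78 and 0.99. Among the importers, Tnpo2 was lower in NAc than in PFC by 1.28 and Tnpo1 lower than in VMB by 1.31. Tnpo1 was higher in VMB than in PFC by 0.79, and Srpk1 lower by 0.62.

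Other regulators of splicing, among them several with restricted expression, were the last list. Of 30, 23 were tested, and 6 were called higher and 5 lower in NAc than in PFC (13.8% and 10.8% of all genes), 4 and 6 in VMB than in PFC (15.9% and 13.4%), and 9 and 3 in NAc than in VMB (14.5% and 14.9%). Khdrbs3, or SLM2, was high in PFC, with -1.91 ± 0.05 in NAc and -1.79 ± 0.05 in VMB. Celf2 was higher in NAc than in VMB by 2.19 ± 0.06 and lower in VMB than in PFC by 1.59 ± 0.06, and Celf1 was higher in NAc than in VMB by 1.18 ± 0.03. Nova1, a neuronal RNA-binding protein, was lower in NAc than in VMB by 2.06 ± 0.06. Rbfox3, the antigen of the NeuN antibody, was lower in VMB than in PFC by 1.67 ± 0.06, Rbfox2 lower in NAc than in PFC by 0.72 ± 0.09, and Tia1 higher in NAc than in PFC by 1.07 ± 0.08.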

How the data were processed

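Expression was measured on Affymetrix mouse oligonucleotide arrays, 19 each for NAc, PFC and VMB. The authors summarized probesets by RMA after processing with GCOS, with no version in the submitters' processing notes, and the deposited values are log2 signals of 22626 probesets. All 57 columns belong to a labelled sample. Arrays were grouped by title, and replicate numbers are those of the titles. Intake per mouse is not in the labels and was not used.

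Symbols came from the platform annotation, and 20380 probesets carry 1 symbol, 691 several and 1555 none. The table of GRCm38.p6 gave current names and promoters. Probesets that reached 4.5 on at least 1 array were tested, which kept 19815 and removed 2811. Values were quantile-normalized over all arrays together, because RMA had left the regions on unequal scales. The regions were fitted in 1 limma model (empirical Bayes without trend or robust options), with Benjamini-Hochberg adjustment over all tested probesets. Calls needed an adjusted p under 0.01 and a difference of at least 0.5. Differences are given ± SE. Correlations across mice used 100000 two-sided permutations. R 4.3.3, limma 3.58.1, statmod 1.5.0, Python 3.11.15, pandas 2.3.3 and scipy 1.17.1 were used, and the fit was tested on simulated data.

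The members and lists were chosen with earlier results of these data known. Genes were named when they were Hnrnpa1, when they were among the 8 called members with the highest or lowest difference in a comparison, when they were among the 3 most or least variable members of a region, when they had probesets called in opposite directions, or when they were among the 3 called genes of a partner list with the largest difference. Members named beyond this rule (Hnrnpdl, Sf3a3, Srsf4, Srsf6, Srsf9, Snrpb2, Sf3b1, Sf3b4, Srsf5 and Hnrnpm) were chosen after their values were seen. Alternatives covered the scaling, the filter, the minimum difference, array weights, the replicate number as a block, the probeset and single arrays. The number of arrays limits the precision.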

Additional observations from a re-analysis of the deposited data

How the results depend on the processing

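The scaling mattered most. On the values as deposited 37 members were called higher and 0 lower in NAc than in PFC, and 37 and 0 in NAc than in VMB, and the member medians were 0.86, 0.027 and 0.76 for NAc against PFC, VMB against PFC and NAc against VMB. Of all genes, 93.3%, 66.0% and 86.5% were above 0 on these values, with medians of 0.74, 0.19 and 0.55. Srsf10 then differed by 0.013 between NAc and PFC and Hnrnpf by 0.049 between NAc and VMB, both with the sign turned. Hnrnpa1 probeset 1455305_x_at differed by 0.98 and 0.89 and was called, and its r with 1436549_a_at was 0.74 in NAc, 0.48 in PFC and 0.54 in VMB. With array medians centred the member medians were 0.23, -0.13 and 0.30, and 8 members were higher and 2 lower for NAc against PFC, 1 and 6 for VMB against PFC, and 14 and 1 for NAc against VMB. Of all genes, 61.2%, 53.1% and 58.3% were then above 0, with medians of 0.12, 0.03 and 0.09. The shares of all genes called on the deposited and the centred scale are not given here. Without a minimum difference the counts were 22 and 7, 14 and 16, and 22 and 6, and with a minimum of 1 they were 0 and 1, 0 and 0, and 2 and 0. Array weights left 1 member lower in NAc than in PFC, as did leaving out NAc replicates 1, 6 and 19, an alternative added after seeing the data. With the second probeset of each gene 4 were lower in NAc than in PFC, 0 in VMB than in PFC (median 0.043) and 4 in NAc than in VMB. Apart from the scaling, the minimum difference and the number of members that have a second probeset, the cause was not tested.

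Same-numbered arrays were little more alike than others. This does not settle whether a number is the same mouse in each region, as no label gives the mice. The mean r of same-numbered arrays after removing the region means between NAc and PFC was 0.06, between NAc and VMB 0.07, and between PFC and VMB 0.01. For arrays of unlike number it was -0.003, 0.002 and -0.001. The lowest r of same-numbered arrays was -0.06, -0.49 and -0.24, and an array matched its own number best in 2, 2 and 1 of 18 cases. With the replicate number as a block (consensus correlation 0.0546) Hnrnpa1 probeset 1436549_a_at differed by 1.09 between NAc and PFC, and all 35 results that could be fitted stayed on the same side of their threshold. Leaving out PFC replicate 20 changed no call of a member. Without PFC replicate 14 Hnrnpd, and without PFC replicate 3 Snrpb2 (both added after seeing the data), was lower in VMB than in PFC by 0.50 and called, which made 3.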
